A study of Mus musculus with 6 samples.

Results

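UDP-glucuronosyltransferases (UGT genes) and cytosolic sulfotransferases (SULT genes) were followed in liver polyA RNA of wild-type C57BL6J mice fed for 6 weeks either a diet deficient in methionine and choline (MCD, 3 libraries) or a diet sufficient in both (MCS, 3 libraries). Every row of the deposited gene table whose symbol names a member of the Ugt1, Ugt2 or Ugt3 families or a numbered Sult gene was taken. This gave 42 of 21899 genes, 21 UGT and 21 SULT. The MCD diet is widely used in mice to model steatohepatitis, a fatty and inflamed liver. Both groups carry the same genotype and differ only in the diet named in the labels. Sex and age are not given in the sources used here. Whether each replicate is a separate mouse is not stated either, and p-values therefore reflect the spread among these libraries alone, which may be technical.

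Both families carry out conjugation, the step of detoxification that attaches a polar group to drugs, steroids, bile acids, bilirubin and thyroid hormones so that they can leave the cell in bile or urine. UGT enzymes sit in the endoplasmic reticulum and transfer a sugar, usually glucuronic acid from UDP-glucuronic acid. SULT enzymes are soluble and transfer sulfate from the donor PAPS, whose sulfate can derive from the sulfur of methionine and cysteine. In mice the liver levels of several SULT genes differ between the sexes, with Sult2a1, Sult2a2 and Sult3a1 known as female-predominant.

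Total counts were 16615469 to 21322771 per library. Levels compared between diets are CPM, counts scaled to a common library size adjusted by TMM, and 3 counts correspond to 0.104 to 0.226 CPM. Levels compared between genes are TPM, which allows for transcript length. Fold changes are log2(MCD/MCS) with the SE after ±, fitted by the quasi-likelihood method of edgeR, with p adjusted by Benjamini-Hochberg over 12599 tested genes. The 10 hepatocyte markers, albumin included, were all detected and summed to between 55876 and 93903 CPM in MCD libraries and between 86919 and 114041 CPM in MCS libraries. The 10 markers of recruited macrophages summed to between 1013 and 2610 CPM in MCD libraries and between 72.6 and 98.1 CPM in MCS libraries, and the 10 cholangiocyte markers to between 224 and 596 CPM in MCD libraries and between 70.3 and 107.5 CPM in MCS libraries. Of these markers 4 hepatocyte markers fell, and 10 macrophage and 7 cholangiocyte markers rose, with Spp1 in both of the last lists. Spp1 alone held 317, 175 and 522 CPM in MCD replicates 1 to 3, most of the cholangiocyte sum there. It had 56.6, 57.2 and 33.9 CPM in MCS replicates 1 to 3. The cholangiocyte sum therefore does not stand for cholangiocytes alone. Of other cell types, 3 of 8 Kupffer cell markers fell, 4 of 10 stellate cell and fibroblast markers rose, and 0 of 9 sinusoidal endothelial markers passed. The endothelial sums were 111, 78.6 and 403 CPM in MCD replicates 1 to 3 and 120.4, 164 and 465 CPM in MCS replicates 1 to 3, so replicate 3 of both diets stood apart. None of them was at 0 in all MCD libraries, and 1 cholangiocyte marker was at 0 in all MCS libraries. In bulk RNA, fewer hepatocytes and less RNA per hepatocyte cannot be told apart, and the part of these cell type differences in the results below was not tested.

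Of the 42 genes, 25 had enough counts to be tested (17 UGT and 8 SULT), and 2 of these, Sult1e1 and Ugt1a10, had fewer than 10 counts in every library of one diet. Between the diets 2 genes were higher on the MCD diet, the estrogen sulfotransferase Sult1e1 and Ugt1a7c, and 8 were lower: Sult2a7, Sult2a8, Sult5a1, Ugt1a9, Ugt1a10, Ugt2b1, Ugt2b38 and Ugt3a1. The other 15 did not pass at adjusted p under 0.05. Among all tested genes 24.7% passed in either direction, 14.8% higher and 9.96% lower on the MCD diet. The median log2 fold change was −0.37 over the 25 genes and 0.01 over all tested genes. The direction of the calls depended on scaling. With library size alone 7 of the 25 were higher and 4 lower, where 5094 of all 12599 tested genes were higher and 348 lower. The medians then moved to 0.17 over the 25 genes and 0.57 over all tested genes. Changes are therefore stated relative to the bulk of the genes. Of all called genes 59.7% were higher on the MCD diet, and 93.6% with library size alone. Without MCD replicate 1, MCS replicate 1, MCS replicate 2 or MCS replicate 3 the number of lower genes was 3, 5, 3 or 5. Without the third replicate of both diets 4 genes were higher (Sult1a1, Sult1d1, Sult1e1 and Ugt1a7c) and 7 lower, with Sult2a7 and Sult5a1 lost (adjusted p = 0.0605 and 0.0747) and Ugt2b34 gained (−0.50, adjusted p = 0.0363). The calls of Ugt1a7c, Sult2a8, Ugt2b1 and Ugt3a1, 4 of the 10, held in all 17 alternatives of scaling, filter, test and libraries, and that of Sult1e1 in 16.

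**Figure D1:**
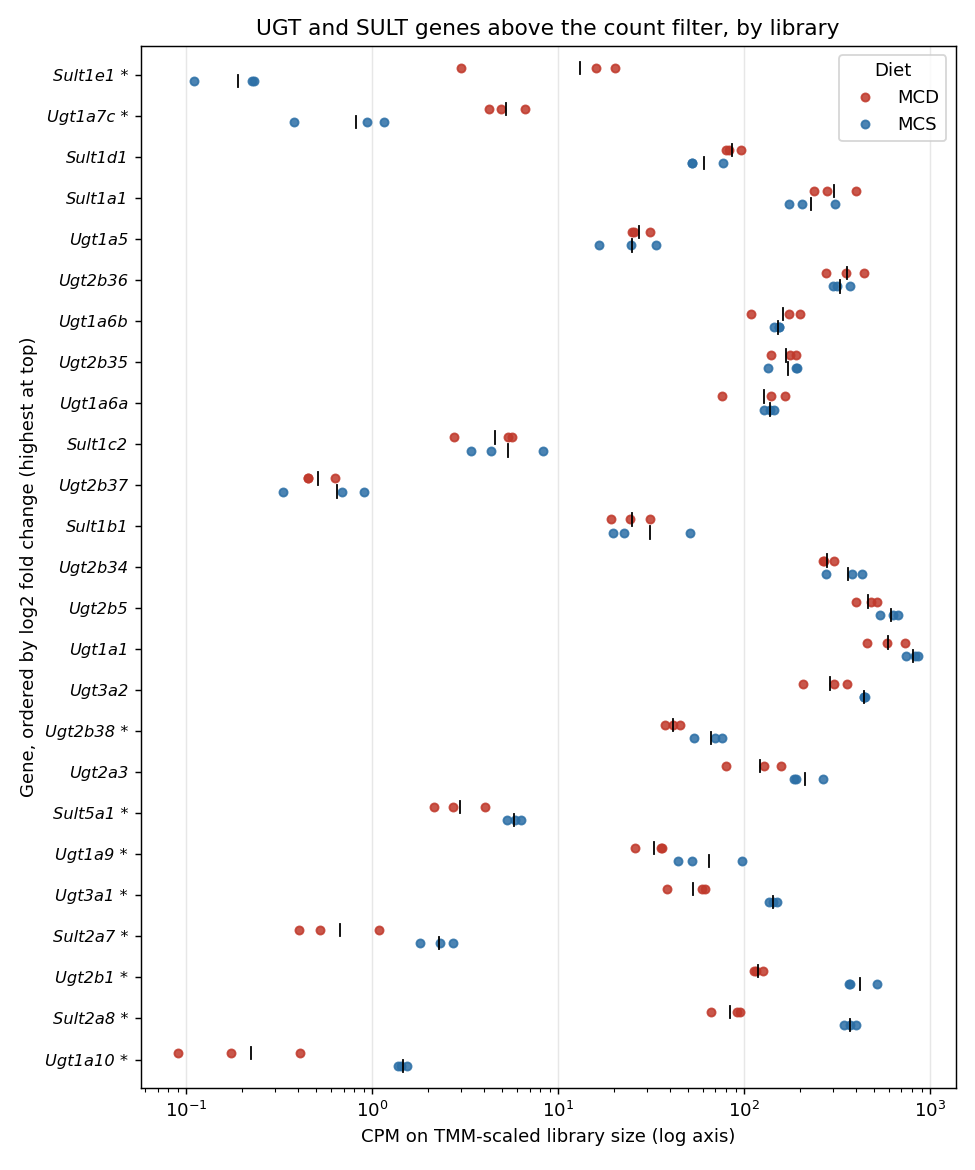
CPM (log axis) of the 25 tested UGT and SULT genes in each of the 3 MCD and 3 MCS libraries (points), with the mean of each diet (black bar); an asterisk marks adjusted p under 0.05. Sult1e1 lies between 2.99 and 20.2 CPM in MCD libraries and at most at 0.230 CPM in MCS libraries, while Sult2a8 and Ugt2b1 lie lower in every MCD library.

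Sult2a8 (ENSMUSG00000030378), a liver enzyme known in mice for sulfating bile acids, had the largest fall among the called genes that averaged over 10 CPM on the MCS diet. It had 66.1, 94.7 and 91.0 CPM in MCD replicates 1 to 3, against 369.6, 343 and 401 CPM in MCS replicates 1 to 3. Every MCD library was far below every MCS library. The log2 fold change was −2.14 ± 0.20 (adjusted p = 0.000424), a 4.42-fold lower level. It stayed between −2.27 and −2.00 with any 1 library left out, and was −1.54 on the log2(TPM + 1) scale.

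Sult1e1 (ENSMUSG00000029272), which inactivates estrogens by sulfation, was near the detection limit on the MCS diet. It had 16.0, 20.2 and 2.99 CPM in MCD replicates 1 to 3, against 0.230, 0.226 and 0.110 CPM in MCS replicates 1 to 3, which rest on 4, 3 and 2 counts. MCD replicate 3 was far below the other MCD libraries and still above each MCS library. The log2 fold change was 6.09 ± 0.88 (adjusted p = 0.00404). It ranged from 5.61 to 6.57 with 1 library left out and did not pass by limma-voom (5.47, adjusted p = 0.128). On the log2(TPM + 1) scale it was 3.95.

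Ugt2b1 (ENSMUSG00000035836), a member of the Ugt2b group that conjugates steroids and drugs, fell to 118 ± 6.91 CPM in MCD libraries, against 418 ± 86.6 CPM in MCS libraries (SD, n = 3 each). Single libraries held 116, 126 and 113 CPM in MCD replicates 1 to 3 and 368, 367 and 518 CPM in MCS replicates 1 to 3. The MCD libraries were close together, and MCS replicate 3 was highest. The log2 fold change was −1.82 ± 0.20 (adjusted p = 0.000850), and −1.13 on the log2(TPM + 1) scale.

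Ugt3a1 (ENSMUSG00000072664), whose human counterpart uses N-acetylglucosamine as the donor sugar in place of glucuronic acid, had 59.5, 61.8 and 38.4 CPM in MCD replicates 1 to 3, against 143, 136 and 150.2 CPM in MCS replicates 1 to 3. The diets did not overlap, and MCD replicate 3 was lowest. The log2 fold change was −1.43 ± 0.20 (adjusted p = 0.00202), and −0.78 on the log2(TPM + 1) scale.

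Ugt1a7c (ENSMUSG00000090124), one of the Ugt1a isoforms, was a minor member that rose. It had 4.90, 4.25 and 6.61 CPM in MCD replicates 1 to 3, against 1.15, 0.377 and 0.937 CPM in MCS replicates 1 to 3. All MCD libraries were above all MCS libraries. The log2 fold change was 2.64 ± 0.42 (adjusted p = 0.00385), and 1.49 on the log2(TPM + 1) scale. Its reads cannot be fully separated from those of other Ugt1a isoforms, as described for that locus.

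The start regions of these 5 genes are shown because they are the members whose calls held in at least 16 of the 17 alternatives, and the mouse Ugt1a isoforms differ mainly through separate starts. Sequences of 300 bases (250 before the start and 50 from it on) come from RefSeq on GRCm38.p6, an older build than the GRCm39 of the submitters' processing notes, and 36 of the 42 genes had an entry. The windows are chr5:87591562-87591861 on the minus strand for Sult1e1, chr1:88094751-88095050 on the plus strand for Ugt1a7c, chr7:14446538-14446837 and chr7:14438502-14438801 on the minus strand for the 2 starts listed for Sult2a8, chr5:86926454-86926753 on the minus strand for Ugt2b1, and chr15:9279579-9279878 on the plus strand for Ugt3a1. Each is written 5′ to 3′ on the strand of its gene, and capitals mark matches on either strand to GTTAAT (HNF1), AGGTCA (nuclear receptors), TATAAA (TBP), GCGTG (AHR), TGACNNNGC (NRF2), TTCNNNGAA (STAT5) and TTGCNNAA (C/EBP).
Sult1e1 promoter: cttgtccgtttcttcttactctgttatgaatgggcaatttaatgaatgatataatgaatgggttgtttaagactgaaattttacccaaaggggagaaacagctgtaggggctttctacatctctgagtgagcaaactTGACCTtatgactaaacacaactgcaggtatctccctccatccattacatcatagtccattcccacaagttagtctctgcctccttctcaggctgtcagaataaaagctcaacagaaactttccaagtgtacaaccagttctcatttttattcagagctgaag
Ugt1a7c promoter: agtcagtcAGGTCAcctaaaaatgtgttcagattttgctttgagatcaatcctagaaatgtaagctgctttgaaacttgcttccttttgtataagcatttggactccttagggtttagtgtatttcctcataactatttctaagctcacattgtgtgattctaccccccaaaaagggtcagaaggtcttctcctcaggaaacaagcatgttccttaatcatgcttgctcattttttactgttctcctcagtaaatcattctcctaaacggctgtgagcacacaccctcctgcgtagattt
Sult2a8 promoter, upstream start: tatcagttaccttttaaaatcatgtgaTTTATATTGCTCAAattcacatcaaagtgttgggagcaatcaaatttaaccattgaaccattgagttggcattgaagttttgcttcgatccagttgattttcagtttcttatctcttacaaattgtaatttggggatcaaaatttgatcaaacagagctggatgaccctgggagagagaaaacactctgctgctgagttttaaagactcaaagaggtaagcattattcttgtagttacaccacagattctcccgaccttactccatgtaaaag
Sult2a8 promoter, downstream start: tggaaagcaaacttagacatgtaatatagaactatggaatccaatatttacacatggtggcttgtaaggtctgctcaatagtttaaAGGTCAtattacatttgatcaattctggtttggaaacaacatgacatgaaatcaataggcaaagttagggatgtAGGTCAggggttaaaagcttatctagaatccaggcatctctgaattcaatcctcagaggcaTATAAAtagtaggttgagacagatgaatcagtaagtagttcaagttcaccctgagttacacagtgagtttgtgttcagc
Ugt2b1 promoter: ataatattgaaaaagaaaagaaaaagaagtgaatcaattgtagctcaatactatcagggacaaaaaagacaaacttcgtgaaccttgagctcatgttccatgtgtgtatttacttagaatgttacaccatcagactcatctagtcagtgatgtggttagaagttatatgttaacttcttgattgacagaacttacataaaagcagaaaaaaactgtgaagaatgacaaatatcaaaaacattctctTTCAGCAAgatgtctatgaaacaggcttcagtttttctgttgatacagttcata
Ugt3a1 promoter: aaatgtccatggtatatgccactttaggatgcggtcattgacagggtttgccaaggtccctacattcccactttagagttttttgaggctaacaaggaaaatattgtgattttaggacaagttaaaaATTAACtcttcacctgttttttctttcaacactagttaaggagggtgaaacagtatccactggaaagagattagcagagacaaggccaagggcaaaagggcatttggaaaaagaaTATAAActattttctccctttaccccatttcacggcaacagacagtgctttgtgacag
A match to the nuclear receptor motif lay 113 bases before the start of Sult1e1, 242 bases before that of Ugt1a7c, and 164 and 90 bases before the downstream start of Sult2a8. Ugt3a1 held a match to the HNF1 motif 123 bases and a TBP motif 8 bases before its start. The downstream start of Sult2a8 had a TBP motif 29 bases before it, and its upstream start a TBP and a C/EBP match at 223 and 217 bases. No matches overlapped in these windows. The only match in the Ugt2b1 window was to the C/EBP motif, 4 bases before its start.

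Over the 39 windows of the family, 13 (33.3%) held the HNF1 motif, against 7.10% of all 32851 windows of the table. The nuclear receptor motif was in 10 windows (25.6%, against 16.3% of all), the TBP motif in 11 (28.2%, against 13.6%) and the C/EBP motif in 9 (23.1%, against 10.8%). The AHR motif was in 6 windows (15.4%, against 32.4%), the STAT5 motif in 2 (5.13%, against 8.30%) and the NRF2 motif in 0, against 12.4%. How alike these windows are was not measured, and a match describes letters in a window and not a binding site.

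The SULT genes were dominated by a pair of members whose order differed between the diets. Sult1a1 (ENSMUSG00000030711), the main phenol sulfotransferase, made up 67.4%, 69.7% and 63.9% of the summed SULT TPM in MCD replicates 1 to 3, against 34.7%, 40.2% and 44.0% in MCS replicates 1 to 3. Sult2a8 made up 11.2%, 11.5% and 17.4% in MCD replicates 1 to 3, against 53.5%, 48.4% and 41.8% in MCS replicates 1 to 3. Sult2a8 thus stood above Sult1a1 in 2 of 3 MCS libraries and below it in all 3 MCD libraries. These shares and ratios do not depend on library scaling. The ratio of Sult2a8 to Sult1a1 TPM was 0.167, 0.165 and 0.272 in MCD libraries, against 1.54, 1.20 and 0.951 in MCS libraries.

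**Figure D2:**
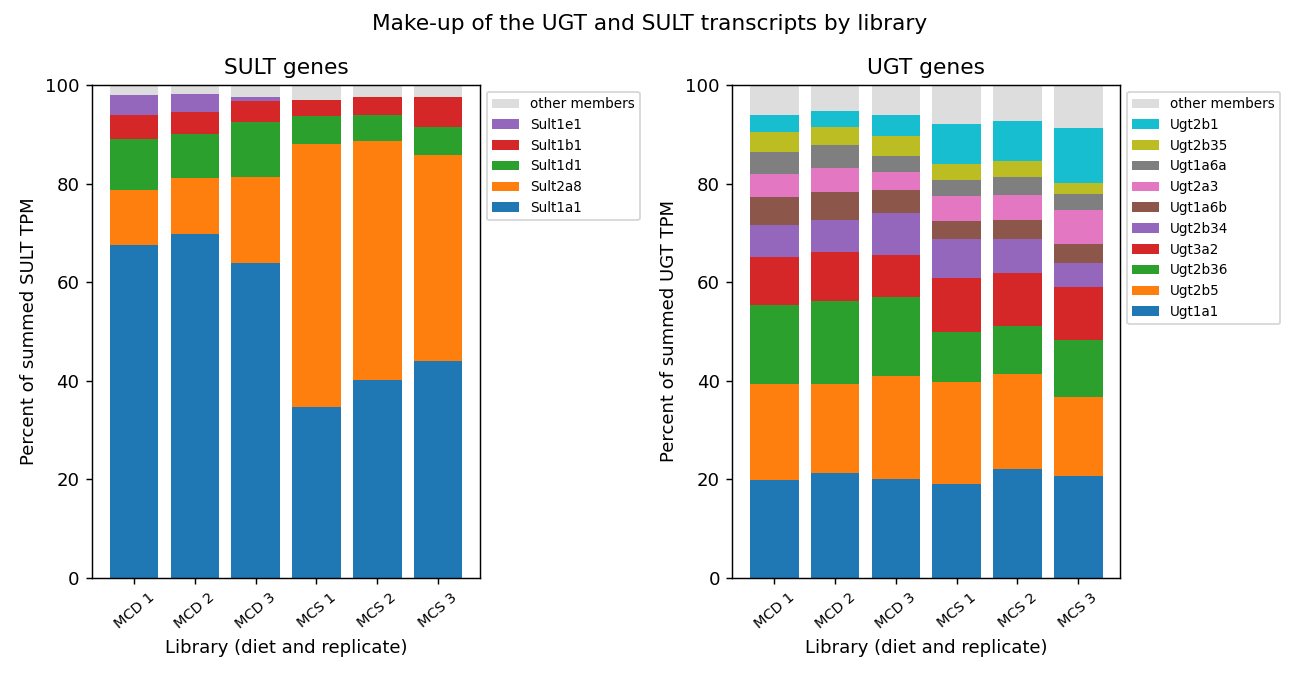
Percent of the summed SULT TPM (left) and of the summed UGT TPM (right) taken by each member in each library, MCD libraries first. Sult2a8 takes 11.2% to 17.4% of SULT TPM in MCD libraries and 41.8% to 53.5% in MCS libraries, while Ugt1a1 takes about the same share of UGT TPM on both diets (20.4% and 20.6% on average).

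Other members of the Sult1 group did not pass. Sult1a1 had 278, 398 and 237 CPM in MCD libraries, against 173, 205 and 307 CPM in MCS libraries, and the diets overlapped (0.41 ± 0.27, adjusted p = 0.290). It passed with library size alone (0.92, adjusted p = 0.0209) and, at 0.84, without the third replicate of both diets (adjusted p = 0.00686). Sult1d1 (ENSMUSG00000029273), an enzyme for catecholamines, had 82.6, 95.9 and 80.0 CPM in MCD libraries, against 52.4, 52.3 and 76.8 CPM in MCS libraries. Every MCD library was above every MCS library, but the difference did not pass (0.51 ± 0.18, adjusted p = 0.0704). It passed without MCS replicate 3 (0.71, adjusted p = 0.0230) and with library size alone (1.04, adjusted p = 0.00711). Sult1b1, which sulfates thyroid hormones, and Sult1c2 overlapped between the diets, and neither passed (−0.33 ± 0.38 and −0.24 ± 0.40, adjusted p = 0.559 and 0.696). Both turned positive without MCS replicate 3. Summed Sult1 counts did not pass either (0.41 ± 0.27, adjusted p = 0.296), but did at 0.84 without the third replicate of both diets (adjusted p = 0.00520).

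Sult1e1, Sult1d1 and Sult1b1 are direct neighbours in the RefSeq gene order, next to Ugt2a2 and Ugt2a1 at the end of the Ugt2 cluster on chromosome 5. In that cluster 13 members lie side by side. Their values differed widely: Sult1e1 rose, Ugt2b1 and Ugt2b38 fell, Ugt2a1 and Ugt2a2 had 0 counts in all libraries, and the other 8 did not pass. The ratio of Sult1e1 to Sult1d1 TPM was 0.378, 0.411 and 0.0729 in MCD libraries, against 0.00855, 0.00843 and 0.00279 in MCS libraries.

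Within the Sult2a group, which acts on bile acids and hydroxysteroids, Sult2a7 (ENSMUSG00000094156) was low and also fell. It had 0.404, 1.09 and 0.522 CPM in MCD libraries, against 2.70, 1.81 and 2.32 CPM in MCS libraries (−1.76 ± 0.49, adjusted p = 0.0307). The call was lost without MCD replicate 1, MCD replicate 3 or any MCS replicate (adjusted p = 0.0605 to 0.116) and with library size alone (−1.26, adjusted p = 0.0661). Sult5a1 (ENSMUSG00000000739) had 2.16, 4.02 and 2.71 CPM in MCD libraries, against 6.27, 5.28 and 5.84 CPM in MCS libraries (−0.97 ± 0.30, adjusted p = 0.0432). Its call was lost without the same libraries (adjusted p = 0.0762 to 0.153), and the value was −0.44 with library size alone (adjusted p = 0.252). The summed Sult2a counts fell by 2.13 on the log2 scale (SE 0.20, adjusted p = 0.000427), nearly all of them from Sult2a8.

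Of the 17 genes below the count filter, 8 had 0 counts in all 6 libraries: Sult1c1, Sult2a4, Sult2a6, Sult3a2, Sult6b2, Ugt1a8, Ugt2a1 and Ugt2a2. Sult2a2, a hydroxysteroid sulfotransferase known as female-predominant in mouse liver, had 50 counts on the MCD diet (8, 8 and 34 in replicates 1 to 3), against 1 on the MCS diet. The ratio was 33.4 with a 95% counting interval of 5.72 to 1344, and 17.6, 21.5 or 21.0 without MCD replicate 3, MCS replicate 1 or MCS replicate 3, while without MCS replicate 2 no MCS count was left. The related Sult2a1, Sult2a3 and Sult2a5 had 3, 7 and 4 counts on the MCD diet, 3, 7 and 3 of them in MCD replicate 3, and 0 on the MCS diet. Taking 3 counts over the MCS libraries as the floor, the summed counts of Sult2a3 were at least 1.56-fold higher on the MCD diet, and at 0 without MCD replicate 3. Counting error is not included in this bound. Across libraries Sult2a3 did not pass in the edgeR fit without a count filter (3.92 ± 2.37, adjusted p = 0.276). No fold is given for Sult2a1 and Sult2a5.

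Sult2b1, which sulfates cholesterol and pregnenolone, had 37 counts on the MCD diet (20, 3 and 14), against 3 on the MCS diet (0, 1 and 2). The ratio was 8.23 with a counting interval of 2.61 to 41.7. It was 5.44, 5.30 or 15.5 without MCD replicate 1, MCS replicate 1 or MCS replicate 3. Sult4a1, a brain form with no known substrate, had 2 counts on the MCD diet, both in replicate 3, against 30 on the MCS diet (7, 10 and 13), a ratio of 0.0445 with an interval of 0.00515 to 0.175, and 0 counts were left on the MCD diet without replicate 3. Sult6b1 had 1 count on the MCD diet and 10 on the MCS diet, Sult3a1 0 and 1, and Ugt1a2 0 and 2. These intervals cover counting error only. In the edgeR fit without a count filter (16582 genes), 9 of these genes were tested across libraries, and Sult2a2 passed as higher (4.56 ± 1.23, adjusted p = 0.0223) and Sult4a1 as lower (−4.29 ± 1.12, adjusted p = 0.0190). Sult2b1 did not pass there (2.92 ± 1.12, adjusted p = 0.0883), and such fitted folds depend on the prior count. In the transcripts of GENCODE M21, 34.6% of the 100-base windows of Sult2a2 also occur in another member, so its counts could be divided with Sult2a1 and Sult2a5.

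**Figure D3:**
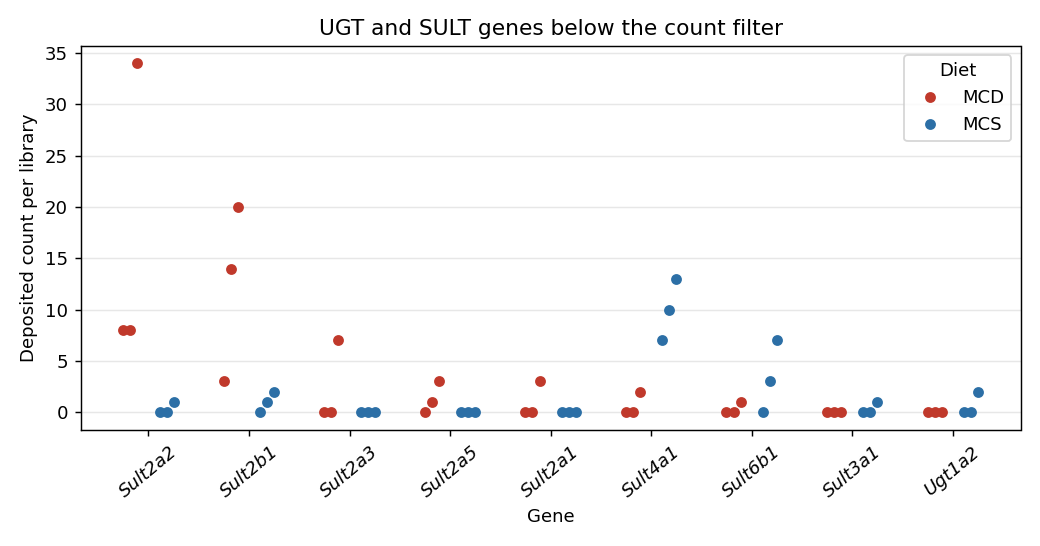
Deposited counts per library of the 9 UGT and SULT genes that had any count but stayed below the filter, MCD left of MCS for each gene and sorted by count within a diet. Sult2a2 and Sult2b1 counts lie mostly in MCD libraries and Sult4a1 counts mostly in MCS libraries, with 34 of the 50 MCD counts of Sult2a2 in replicate 3.

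All Ugt1a isoforms come from one locus on chromosome 1, where separate first exons are joined to common later exons. In GENCODE M21 (GRCm38), 4 of the 5 exons of Ugt1a1 are fully shared with other isoforms, and only 913 of its 2224 exonic bases are its own. Of the 100-base windows of a Ugt1a transcript 57.2% to 100% occur in another one, with 100% for Ugt1a6a, whose windows all lie in the Ugt1a7c model as well. Single Ugt1a values are therefore uncertain, and the locus is best read from its sum. The summed Ugt1a counts had 972, 1161 and 702 CPM in MCD replicates 1 to 3, against 1083, 1233 and 1252 CPM in MCS replicates 1 to 3. The diets overlapped and the sum did not pass (−0.33 ± 0.24, adjusted p = 0.345).

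Ugt1a1 (ENSMUSG00000089960), the enzyme that conjugates bilirubin, was the most abundant UGT, with 568 TPM on the MCD diet and 499 TPM on the MCS diet on average. It had 585, 731 and 459 CPM in MCD libraries, against 739, 865 and 827 CPM in MCS libraries (−0.45 ± 0.23, adjusted p = 0.177). The diets did not overlap on the CPM scale, and with library size alone the value was 0.067. Ugt1a6a and Ugt1a6b, isoforms for planar phenols, overlapped between the diets (−0.10 ± 0.26 and 0.09 ± 0.22, adjusted p = 0.797 and 0.794). Their sign changed without MCD replicate 3 for Ugt1a6a (0.16) and without MCD replicate 2 for Ugt1a6b (−0.12), and Ugt1a6b passed with library size alone (0.60, adjusted p = 0.0183). Ugt1a5 also overlapped (0.13 ± 0.23, adjusted p = 0.715).

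Ugt1a9 (ENSMUSG00000090175), known in humans for conjugating phenols and drugs, had 36.0, 35.8 and 26.0 CPM in MCD libraries, against 44.0, 52.5 and 96.6 CPM in MCS libraries (−0.98 ± 0.29, adjusted p = 0.0429). MCS replicate 3 was far above the rest, and without it the log2 fold change was −0.57 (adjusted p = 0.0727). The call was also lost without MCS replicate 2 or any MCD replicate (adjusted p = 0.0674 to 0.164), by limma-voom (−0.91, adjusted p = 0.0542) and with library size alone (−0.47, adjusted p = 0.229). Ugt1a10 (ENSMUSG00000090165) had 0.0899, 0.407 and 0.174 CPM in MCD libraries, against 1.38, 1.43 and 1.54 CPM in MCS libraries (−2.68 ± 0.60, adjusted p = 0.0145). It did not pass without MCD replicate 1 or either of MCS replicates 1 and 2 (adjusted p = 0.0567 to 0.0624), and moved to −3.40 without MCD replicate 2. The ratio of Ugt1a7c to Ugt1a1 TPM was 0.00900, 0.00616 and 0.0110 in MCD libraries, against 0.00248, 0.00117 and 0.00303 in MCS libraries; Ugt1a7c thus stayed far below Ugt1a1 on both diets.

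**Figure D4:**
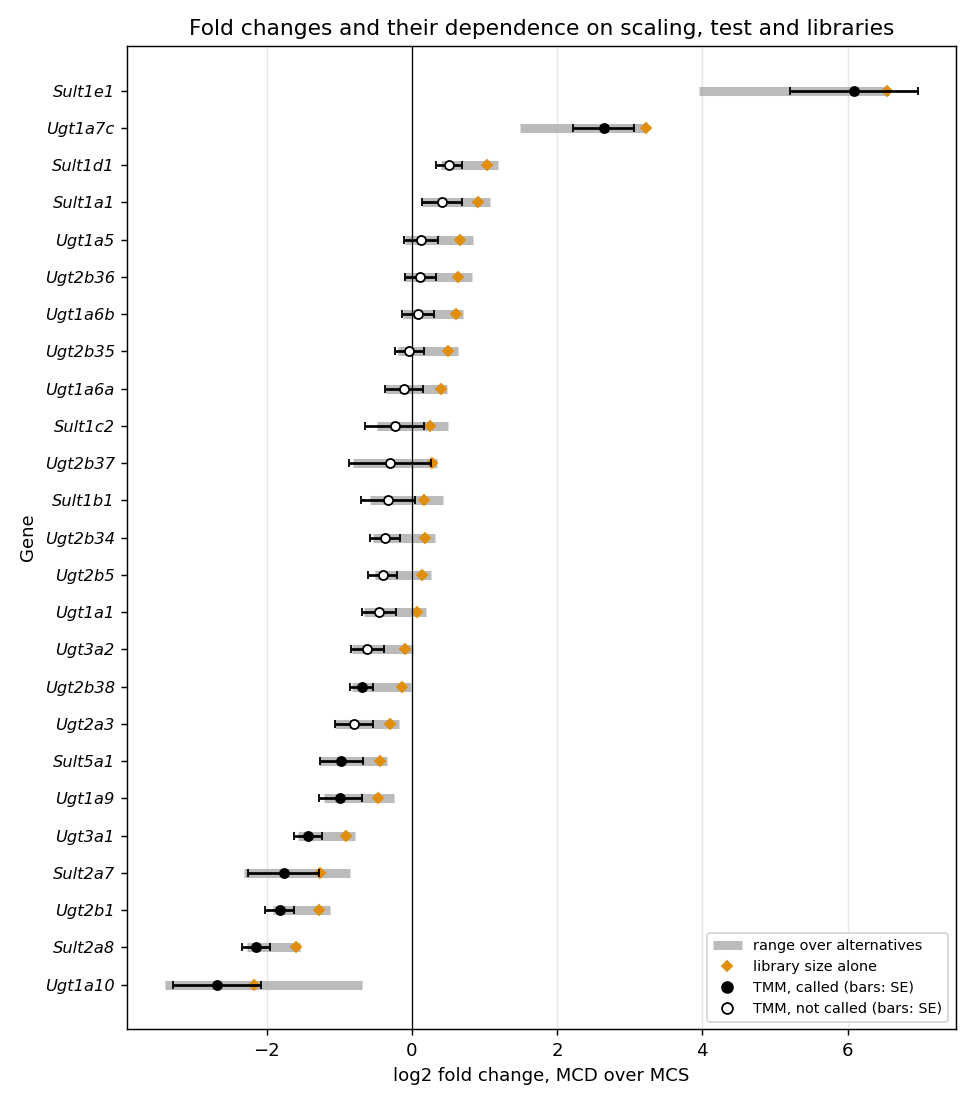
Log2 fold change of MCD over MCS for the 25 tested genes (circles, filled where adjusted p is under 0.05; bars, SE), with the value from library size alone (diamonds) and the range over all alternatives (grey). Sult2a8, Ugt2b1 and Ugt3a1 stay below 0 and Ugt1a7c and Sult1e1 above 0 throughout, while most open circles have a range that crosses 0.

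The Ugt2b genes are separate genes in the chromosome 5 cluster and act on steroids, bile acids and drugs. Apart from Ugt2b1, Ugt2b38 (ENSMUSG00000061906) was called, with 41.3, 45.0 and 37.3 CPM in MCD libraries, against 75.8, 69.6 and 53.8 CPM in MCS libraries (−0.69 ± 0.16, adjusted p = 0.0162). The call was lost without MCD replicate 1 or either of MCS replicates 1 and 2 (adjusted p = 0.0652 to 0.0762) and with library size alone (−0.14, adjusted p = 0.414), and 24.2% of its 100-base windows also occur in Ugt2b5. Ugt2b5 (ENSMUSG00000054630), the most abundant of the group, had 479.6, 515 and 401 CPM in MCD libraries, against 671, 632 and 538 CPM in MCS libraries (−0.40 ± 0.20, adjusted p = 0.173; 0.0483 by DESeq2). Ugt2b34, Ugt2b35, Ugt2b36 and Ugt2b37 overlapped between the diets, at log2 values of −0.37 ± 0.21, −0.04 ± 0.20, 0.12 ± 0.22 and −0.30 ± 0.57 (adjusted p = 0.223, 0.912, 0.719 and 0.726). Ugt2b36 took 16.2% ± 0.401 of UGT TPM on the MCD diet and 10.5% ± 1.05 on the MCS diet (SD, n = 3 each). With library size alone it passed as higher (0.63, adjusted p = 0.0174).

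Within each library Ugt2b1 was also lower relative to Ugt2b5 on the MCD diet. The ratio of Ugt2b1 to Ugt2b5 TPM was 0.175, 0.177 and 0.203 in MCD libraries, against 0.396, 0.420 and 0.696 in MCS libraries. Ugt2b1 took 3.61% ± 0.561 of UGT TPM on the MCD diet and 9.15% ± 1.73 on the MCS diet. The summed Ugt2b counts had 1432, 1621 and 1235 CPM in MCD libraries, against 2052, 1941 and 1889 CPM in MCS libraries (−0.46 ± 0.22, adjusted p = 0.165; 0.0122 by DESeq2). Ugt2a3 (ENSMUSG00000035780), the one Ugt2a gene with counts, had 128, 158 and 80.0 CPM in MCD libraries, against 185, 189 and 264 CPM in MCS libraries, which did not overlap (−0.80 ± 0.26, adjusted p = 0.0536). It passed by DESeq2 (adjusted p = 0.0146), without a count filter (adjusted p = 0.0469) and without MCD replicate 2 (−1.06, adjusted p = 0.0116).

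Ugt3a2 (ENSMUSG00000049152), the neighbour of Ugt3a1 on chromosome 15, had 303, 358 and 206 CPM in MCD libraries, against 438, 441 and 447 CPM in MCS libraries (−0.61 ± 0.23, adjusted p = 0.0778). It passed by DESeq2 (adjusted p = 0.0197) and without MCD replicate 2 (−0.82, adjusted p = 0.0199). The ratio of Ugt3a1 to Ugt3a2 TPM was 0.204, 0.179 and 0.194 in MCD libraries, against 0.339, 0.321 and 0.349 in MCS libraries, and the diets did not overlap. The summed Ugt3a counts fell by 0.77 (SE 0.23, adjusted p = 0.0392), a call lost without MCD replicate 1 or any MCS replicate (adjusted p = 0.0860 to 0.119) and with library size alone (−0.26, adjusted p = 0.187). No 100-base window of Ugt3a1, Ugt2b1, Sult2a8 or Sult1e1 occurs in another member.

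Summed over each family, neither the UGT counts (−0.48 ± 0.25, adjusted p = 0.199) nor the SULT counts (−0.43 ± 0.24, adjusted p = 0.206) passed, and the UGT sum passed by DESeq2 (−0.49, adjusted p = 0.0290). The UGT sum was 2894, 3360.1 and 2261 CPM in MCD libraries, against 3901, 3940.1 and 4003 CPM in MCS libraries. In MCD replicate 3, 17 of the 25 tested genes had their lowest MCD value by CPM, but the share over all tested genes was not counted. That library had the largest TMM factor (1.41), which lowers its CPM. It also had the lowest hepatocyte and the highest macrophage marker sum, and a link between these was not tested. In the libraries of the diets 15 of the 25 genes did not overlap, against 45.3% of all tested genes.

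In the authors' deposited table, whose fold changes are ratios of mean TPM, 10 of the 25 genes had a false discovery rate under 0.05, 7 higher and 3 lower on the MCD diet. Of these, 5 were also called by edgeR, each with the same sign: Sult1e1, Ugt1a7c, Sult2a8, Ugt2b1 and Ugt3a1. The authors' deposited table gave log2 fold changes of 6.69, 2.14, −1.53, −1.16 and −0.79 for these 5. Sult1a1, Sult1d1, Ugt1a6b, Ugt2b35 and Ugt2b36 were called higher only in the authors' deposited table, with log2 fold changes of 1.03, 1.16, 0.72, 0.63 and 0.82. Among the genes below the count filter, Sult2a2 had a false discovery rate under 0.05 there (5.50, false discovery rate 0.00480). Over all genes tested here the median log2 fold change in the authors' deposited table was 0.69, and over the 25 genes 0.28. The share of all genes that passed there was not counted, so the 7 higher genes have no background to be set against.

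Genes that supply the glucuronic acid donor or handle related sugars were mostly not called. Of 11 tested, 3 rose and 1 fell, with a median log2 fold change of 0.54. Of all tested genes 14.8% rose and 9.96% fell. With library size alone 8 of the 11 rose and 0 fell, where 5094 of all 12599 tested genes rose and 348 fell. Ugdh (ENSMUSG00000029201), which makes UDP-glucuronic acid, had 253, 234 and 164 CPM in MCD libraries, against 87.7, 83.8 and 93.5 CPM in MCS libraries (1.297 ± 0.19, adjusted p = 0.00270). Pgm2 rose (1.24 ± 0.21, adjusted p = 0.00474) and the phosphoglucomutase Pgm1 fell by 0.76 (adjusted p = 0.0455), a call lost with library size alone (−0.26, adjusted p = 0.220) and without any library but MCD replicate 2 (adjusted p = 0.0578 to 0.142). Of 9 tested genes (10 listed) for PAPS supply and sulfate handling, 0 rose and 2 fell, with a median of −0.30 (3 higher and 2 lower with library size alone). Slc26a1 (ENSMUSG00000046959), a sulfate carrier of the hepatocyte membrane, had 124, 138 and 68.5 CPM in MCD libraries, against 239, 255 and 204 CPM in MCS libraries (−1.08 ± 0.26, adjusted p = 0.0182). Suox, which oxidises sulfite to sulfate, fell by 1.17 (adjusted p = 0.0202). Both calls were lost without MCD replicate 1 or either of MCS replicates 1 and 2 (adjusted p = 0.0514 to 0.0806), and that of Suox also without MCS replicate 3 (adjusted p = 0.0582). The PAPS synthases Papss1 and Papss2 did not pass (0.38 ± 0.16 and −0.30 ± 0.18, adjusted p = 0.119 and 0.250).

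Among 6 tested deconjugating enzymes and their activators, 1 rose, Gusb (ENSMUSG00000025534), the lysosomal beta-glucuronidase that removes glucuronic acid (1.04 ± 0.18, adjusted p = 0.00488). The median of these 6 was 0.06. With library size alone 4 rose, where 5094 of all 12599 tested genes rose. Of 9 efflux pumps for conjugates and drugs 4 rose and 1 fell, with a median of 1.39. Among all tested genes 14.8% rose and 9.96% fell. With library size alone 6 of the 9 pumps rose and 0 fell, where 5094 of all 12599 tested genes rose and 348 fell. Abcb1a, a P-glycoprotein, and Abcc5 rose by 2.31 ± 0.20 and 1.98 ± 0.39 (adjusted p = 0.000371 and 0.00866), and Abcc6 fell by 0.82 (adjusted p = 0.0292), a call lost with library size alone (−0.30, adjusted p = 0.125) and without MCD replicate 1 or any MCS replicate (adjusted p = 0.0641 to 0.0951). The canalicular pump Abcc2 and the sinusoidal pump Abcc3, which carry glucuronides, did not pass (−0.10 ± 0.22 and 0.33 ± 0.22, adjusted p = 0.765 and 0.288).

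A list of 22 genes was drawn up as regulators of conjugating enzymes, mainly transcription factors. In it 21 genes were tested, of which 1 was called higher and 7 lower. Their median was −0.33 on the log2 scale. Of all tested genes 14.8% were called higher and 9.96% lower. The list also holds the P450 reductase Por, an enzyme, which did not pass (−0.77 ± 0.27, adjusted p = 0.0649). With library size alone 7 of the 21 rose and 0 fell, where 5094 of all 12599 tested genes rose and 348 fell. The median of the 21 relative to that of all tested genes was −0.34 with TMM and −0.37 with library size alone. Ppara and Nr0b2, a fatty acid sensor and a nuclear receptor corepressor, fell by 0.84 and 0.89 (adjusted p = 0.00884 and 0.00970), and with library size alone had −0.30 and −0.33 (adjusted p = 0.116 and 0.200). Nfe2l2, which encodes NRF2, rose by 0.64 ± 0.17 (adjusted p = 0.0240) and did not pass without MCD replicate 1 or either of MCS replicates 1 and 2 (adjusted p = 0.102 to 0.113). Of 15 tested targets (17 listed) of the receptors CAR, PXR and AHR and of NRF2, 9 rose and 0 fell. Their median was 1.36. Among all tested genes 14.8% rose and 9.96% fell. With library size alone 12 of the 15 rose and 0 fell, where 5094 of all 12599 tested genes rose and 348 fell. Cyp2b9, which rose, is also in the list of female-biased genes below. The 6 targets that did not pass with TMM were Cyp3a13, Cyp1a1, Cyp1a2, Gclc, Gclm and Txnrd1 (−0.82, 0.67, −0.59, 0.09, −0.05 and 0.22). The glutathione transferase Gstm3 had 477, 302 and 226 CPM in MCD libraries, against 7.13, 6.87 and 9.04 CPM in MCS libraries (5.44 ± 0.33, adjusted p = 8.68e-05). The quinone reductase Nqo1 rose by 2.33 ± 0.21 (adjusted p = 0.000397). Among the 3 receptors themselves, Nr1i3 (CAR) fell by 0.79 (adjusted p = 0.0367), a call not made with library size alone. Nr1i2 (PXR) and Ahr did not pass (−0.14 ± 0.19 and 0.26 ± 0.13, adjusted p = 0.611 and 0.185).

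Genes whose liver level differs between male and female mice were counted as well, apart from the SULT genes. Of 14 tested male-biased genes 0 rose and 11 fell, with a median of −2.67, and of 12 tested female-biased genes (20 listed) 9 rose and 2 fell, with a median of 3.39. A female-biased gene that is low on the MCS diet could pass the filter only through its MCD counts. Among all tested genes 14.8% rose and 9.96% fell. The counts of both lists were the same with library size alone, where 5094 of all 12599 tested genes rose and 348 fell. Summed CPM of the 20 listed female-biased genes overlapped between the diets, at 248 to 331 in MCD libraries and 102 to 262 in MCS libraries. The male-biased sums did not overlap, at 1323 to 2621 CPM in MCD libraries and 5312 to 7325 CPM in MCS libraries. Cyp4a12b, a male-biased fatty acid hydroxylase, had 31.1, 37.7 and 29.4 CPM in MCD libraries, against 334, 375 and 190.5 CPM in MCS libraries (−3.19 ± 0.27, adjusted p = 0.000336), and the steroid dehydrogenase Hsd3b5 fell by 9.31 (adjusted p = 2.28e-06). The female-biased P450 Cyp2a4 and the anion transporter Slc22a27 rose by 6.58 ± 0.56 and 4.90 ± 0.58 (adjusted p = 0.000485 and 0.00111). Without MCD replicate 3 the value of Cyp2a4 was 5.97. Slc22a27 lay at 0.0755 to 0.221 CPM in MCS libraries, about the level of 3 counts, so its fold is uncertain. Cyp2a4 lay at 0.226 to 0.345 CPM in MCS libraries and Hsd3b5 at 0.209 to 0.360 CPM in MCD libraries. These levels also rest on few counts, so the size of both folds is uncertain as well. Cyp2c40 and Cyp17a1 fell by 2.16 and 2.11 (adjusted p = 0.00939 and 0.0164), the second of which did not pass without MCD replicate 1 or MCS replicate 1 (adjusted p = 0.0715 and 0.0507) and moved to −2.74 without MCD replicate 2.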

How the data were processed

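Liver polyA RNA of 3 MCD and 3 MCS libraries was compared. The submitters' processing notes name GRCm39, RSEM, StringTie 1.3.1, HISAT2 2.1.0, Bowtie2 2.2.8 and fastp 0.18.0 without their roles; the labels do not say whether strand was kept. Per the file headers, the deposited table holds a count and a TPM value per gene and library. In 64 cells a count of 0 stands beside a TPM above 0, so the deposited counts were taken to be estimated counts (expected counts) rounded by the authors. The deposited log2 fold change is the authors' ratio of mean TPM, and how the deposited p-value and FDR were computed is not stated there.

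Counts were tested with edgeR 4.0.16 (R 4.3.3): filterByExpr with a minimum count of 10, TMM scaling, robust quasi-likelihood with diet as the only term, Benjamini-Hochberg adjustment over 12599 genes, called under 0.05. SE was taken from the fold change and the square root of its F statistic. Family sums were added as rows to the same fit. Other settings used limma 3.58.1, DESeq2 1.42.0 and log2(TPM + 1) or log2(TPM + 0.1). In a simulation of 12599 genes, 50 were altered at each fold size. Recovery was 3 of 50 at 1.5-fold, 19 at 2-fold, 40 at 4-fold and 45 at 8-fold, and 10 calls were false. Members that did not pass may therefore still differ by 1.5-fold or 2-fold. Far fewer genes were altered there than the 3116 called in the real data. The simulation therefore cannot show errors that come from scaling, and its false calls do not cover them. All replicate pairs differed beyond sampling noise (chi-square 14.0 to 158 per degree of freedom); MCS replicate 3 stood apart, at 158 and 141 from MCS replicates 1 and 2, which were at 14.0 from each other.

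All members above the count filter are named, and from each of the 8 lists the 2 called genes with the smallest p in each direction. Other list genes (Papss1, Papss2, Abcc2, Abcc3, Por, Nr1i3, Nr1i2, Ahr, Cyp2b9 and the targets that did not pass) were chosen after their values were seen. The same holds for the pairs of genes set as ratios. Members and lists were chosen with earlier results of these data known. Coordinates of the files' build were not used here.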

Additional observations from a re-analysis of the deposited data

How the results depend on the processing

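Counts of called UGT and SULT genes (2 higher, 8 lower) were 7 and 4 with library size alone, 8 and 5 on log2(TPM + 1), and 9 and 5 on log2(TPM + 0.1). Higher genes numbered 1 by limma-voom and 4 without the third replicate of both diets, and lower genes 3 at adjusted p under 0.01. By DESeq2 2 were higher and 11 lower, and without a count filter 3 and 10. With 1 library left out, 2 to 3 were higher and 3 to 10 lower. Over all genes 3116 were called, 5442 with library size alone, and 5713 and 5992 on log2(TPM + 1) and log2(TPM + 0.1). Higher on the MCD diet were 5094 of them with library size alone and 5449 and 5718 on these TPM scales. At adjusted p under 0.01 1058 were called. With 1 library left out 1347 to 4435 were called (1472, 1379 and 1347 without MCD replicate 1, MCS replicate 1 and MCS replicate 2).

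Signs changed only for genes and sums that were not called. In the order Sult1b1, Sult1c2, Ugt1a1, Ugt1a6a, Ugt2b34, Ugt2b35, Ugt2b37, Ugt2b5, and the Ugt1a, Ugt2b, UGT and SULT sums, the log2 fold changes were 0.17, 0.25, 0.067, 0.40, 0.19, 0.50, 0.27, 0.14, 0.19, 0.080, 0.050 and 0.083 with library size alone. They were 0.41, 0.37, 0.19, 0.48, 0.32, 0.63, 0.14, 0.26, 0.30, 0.26, 0.20 and 0.31 on log2(TPM + 1), and 0.43, 0.46, 0.19, 0.49, 0.32, 0.64, 0.35, 0.26, 0.30, 0.26, 0.20 and 0.32 on log2(TPM + 0.1), where Ugt3a2 had 0.016 on both. Without the third replicate of both diets Sult1b1, Sult1c2 and Ugt1a6a had 0.39, 0.49 and 0.17. With 1 library left out, Sult1b1 ranged from −0.58 to 0.23, Sult1c2 from −0.48 to 0.22 (0.03 without MCD replicate 3), Ugt1a6a from −0.37 to 0.16, Ugt2b35 from −0.20 to 0.088 (0.04 and 0.03 without MCS replicates 1 and 2), Ugt1a5 from −0.10 to 0.39, Ugt1a6b from −0.12 to 0.31 and Ugt2b36 from −0.091 to 0.27. Apart from the settings that change the scaling, the cause was not tested.

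The labels do not tie same-numbered libraries together. Their deviations correlated at 0.06, 0.15 and 0.25 for numbers 1 to 3, highest for the third replicates that shared high endothelial marker sums. Libraries of unlike number correlated at −0.22 to 0.13. Every library but MCS replicate 1 correlated best with its own number. Deviations were taken from the mean of each diet, so these correlations depend on each other. For MCD replicates 1 and 2 the lead was small (0.063 against 0.038, and 0.147 against 0.132). A tie between same-numbered libraries is possible, but these values cannot decide it. The main fit has no term for it. With a replicate block 2 genes were higher and 7 lower, since Ugt1a9 did not pass (adjusted p = 0.0545). On both TPM scales the calls of Sult5a1, Ugt1a9, Ugt2b38 and the Ugt3a sum were lost as well. Sult2a7, Ugt1a10 and Ugt2b37 were not tested at a minimum count of 30. Genes at under 1 CPM rest on few counts, and their folds are the least certain.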
